A study of Mus musculus with 2 samples.

Results

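Amino acids enter and leave hepatocytes through carriers of the plasma membrane, and 10 genes of such carriers were followed here among the 14339 named genes of the expression table. They were picked by gene symbol as carriers of hepatocytes, with earlier results of these data known, and all 10 had a row. The RNA, selected for poly-A tails, came from primary hepatocytes of the mouse, which are parenchymal cells of the liver kept in vitro. They had been transfected by Lipofectamine with ClpP siRNA, directed at a proteolytic subunit that works in the matrix of mitochondria, or with GFP siRNA as the control. Each group held 1 library, so every difference below is between 2 libraries, with no replicate check, no test and no error. The sources used here gave no strain or age of the mice, no siRNA dose and no harvest time.

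The carriers fall into families with different jobs. Members of SLC7 are light chains or cationic carriers. The light chains reach the membrane bound to the heavy chain CD98hc, the product of Slc3a2. SLC38 members take up small neutral amino acids or glutamine together with sodium, and SLC1 members exchange neutral amino acids such as alanine, serine and glutamine. When amino acids run short or translation is checked by phosphorylation of eIF2 alpha, the transcription factor ATF4 raises transcription of several carriers through amino acid response elements in their genes. Slc7a11, Slc3a2 and Slc7a5 are well known ATF4 targets, whereas Slc7a2, Slc38a3 and Slc38a4 are carriers that adult liver makes as part of its normal programme. The comparison set these groups side by side, with Slc7a1, Slc38a2, Slc1a4 and Slc1a5 beside them. These last genes were not sorted by control through ATF4, and ATF4 targets may be among them.

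Promoter windows of 300 bases, 250 before and 50 after each annotated start, were in the RefSeq table (GRCm38.p6) for 6 of the 10 genes, in 9 windows. Slc7a5, Slc7a2, Slc38a3 and Slc1a5 were not matched. Both strands were searched for the amino acid response element spelled TGATGNAAN, which 3.90% of 32544 distinct promoter windows hold. Slc7a11 and Slc1a4 held it, and their windows are printed to show how this element lies in them. Both carriers were lower with ClpP siRNA, but so were Slc3a2, Slc7a1 and Slc38a2, whose windows held no copy. Capitals mark the element. The Slc7a11 window is chr3:50443564-50443863 and the Slc1a4 window chr11:20332664-20332963, both on the minus strand and read 5′ to 3′ along the gene.
Slc7a11: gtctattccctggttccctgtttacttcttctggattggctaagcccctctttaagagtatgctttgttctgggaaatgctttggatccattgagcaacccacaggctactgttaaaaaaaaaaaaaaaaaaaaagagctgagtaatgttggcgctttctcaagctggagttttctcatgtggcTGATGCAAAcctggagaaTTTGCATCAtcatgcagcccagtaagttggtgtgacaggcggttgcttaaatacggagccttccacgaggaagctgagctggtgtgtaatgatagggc
Slc1a4: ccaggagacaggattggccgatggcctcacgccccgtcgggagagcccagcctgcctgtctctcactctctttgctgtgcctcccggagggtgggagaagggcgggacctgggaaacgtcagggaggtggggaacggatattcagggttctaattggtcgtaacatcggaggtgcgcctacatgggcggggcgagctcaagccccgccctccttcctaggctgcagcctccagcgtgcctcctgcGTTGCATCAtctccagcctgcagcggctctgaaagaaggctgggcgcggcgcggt

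In the Slc7a11 window the element occurs 2 times, at bases 185 to 193 and 203 to 211, facing each other with 9 bases between them. Read on its own strand each copy has the same letters, TGATGCAAA. Only 23 of the 32544 windows (0.0707%) hold 2 or more copies. In the Slc1a4 window the single copy lies on the opposite strand at bases 246 to 254, across the annotated start, and reads TGATGCAAC. No copy was in the windows of Slc3a2, Slc7a1, Slc38a2 or Slc38a4, which says only that these letters are not in those windows. Further motifs were searched on both strands. The NRF2 antioxidant response element TGACNNNGC, held by 12.4% of windows, was found in 1 of the windows of Slc7a1 and in that of Slc38a2. The STAT element TTCNNNGAA, held by 8.33%, was found in Slc7a11 and in the other window of Slc7a1. The interferon-stimulated response element ISRE (3.45%) and the cAMP response element TGACGTCA (1.80%) were in none of the 9. None of the matches in the members' windows overlapped another, and a match is a description of letters, not of binding.

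Clpp, the targeted gene, had 45.1 FPKM in the control and 9.32 with ClpP siRNA, where FPKM, as deposited, counts fragments per length of transcript and per mapped fragments of the library. The measure of difference was the log2 ratio, log2(FPKM + 1) with ClpP siRNA minus log2(FPKM + 1) with GFP siRNA, and the added 1 shrinks this difference where FPKM is low. Of the named genes, 11087 had a mean FPKM of at least 1. Their log2 ratios had a median of -0.01, and the 16th and 84th percentiles were -0.36 and 0.40. FPKM totals were 532302 and 535135 over named genes. The read depth is unknown, so no counting interval can be given. All 10 hepatocyte markers looked for passed the filter, 5 higher and 5 lower with ClpP siRNA. The larger differences were mostly upward. At least 2-fold, 5 were higher and 1 lower, beside 5.19% and 2.04% of all genes. The median log2 ratio of 0.50 falls midway between Hnf4a and Tat (1.01), and no marker lies near it. Hnf4a, counted among the lower, was level (-0.003). Albumin (Alb) was at 2952 FPKM in the control and 6245 with ClpP siRNA, while transferrin (Trf) was at 5999 and 3546 and the antitrypsin gene Serpina1c at 1095 and 438. Values given as pairs below follow this order. Lymphocyte and neutrophil markers (9 and 5 genes) had no row in the table. Every row was above 0 in both libraries, so a missing row does not show that a gene was absent from both.

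Of the 10 carriers, 8 were lower and 2 higher with ClpP siRNA, and the median log2 ratio was -0.26. Among all genes 50.7% were lower and 49.3% higher. Slc7a11 was at least 2-fold lower, 1 of 10 where 2.04% of all genes were, and none was at least 2-fold higher, where 5.19% of all genes were. At the looser limit of 1.5-fold, Slc7a11, Slc7a1, Slc1a4 and Slc38a2 were lower, 4 of 10 where 6.79% of all genes were. None was higher, where 9.97% of all genes were, although Slc7a2 lay just short of the limit, at 0.583 where 1.5-fold is 0.585. The 10 genes were not drawn at random, so these shares describe them and carry no test.

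**Figure D1:**
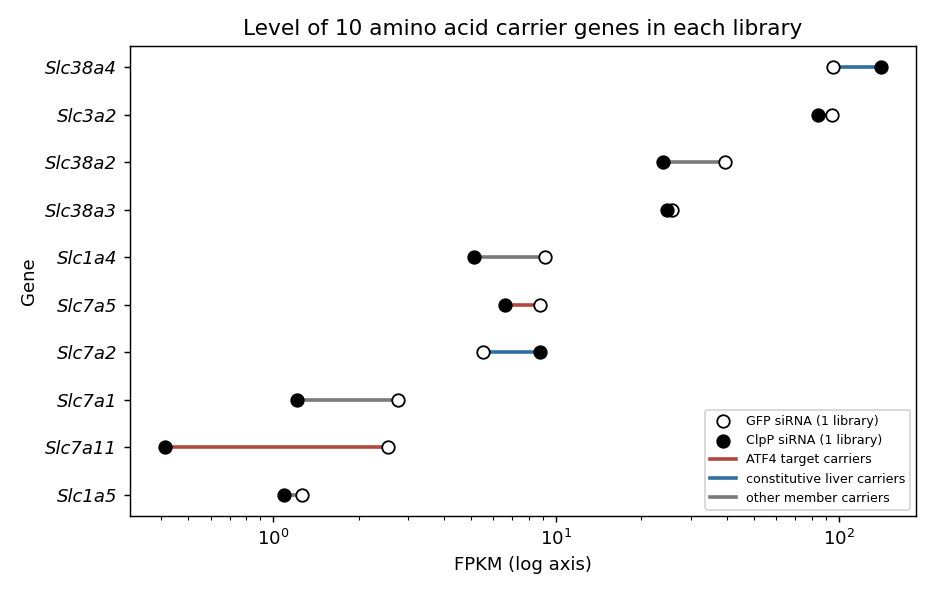
Level of each of the 10 carrier genes in FPKM on a log axis, with an open point for the GFP siRNA library and a filled point for the ClpP siRNA library (1 library each, no error). The line between the points is coloured by group. Slc38a4 and Slc3a2 are the most abundant in both libraries, and Slc7a11 has the longest line, from 2.55 to 0.416 FPKM.

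The ATF4 target carriers were all lower, by very different amounts. Slc7a11 (NCBI gene 26570) encodes xCT, the light chain that imports cystine in exchange for glutamate and so feeds glutathione synthesis. Its level was 2.55 FPKM in the control and 0.416 with ClpP siRNA. The deposited FPKM was thus 6.14-fold lower, while on the log2(FPKM + 1) scale the ratio was -1.33, a 2.51-fold difference. Only 0.992% of genes had a lower ratio. Slc7a11 was the 1 member below 1 FPKM in a library, and it passed the filter on mean FPKM through its level with GFP siRNA alone. It was scarce in both libraries, and in the authors' deposited table, after quantile normalization, its fold change is -2.58.

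Slc7a5 (NCBI gene 20539) encodes LAT1, the light chain that carries leucine and other large neutral amino acids. Levels of 8.74 and 6.60 FPKM gave it a log2 ratio of -0.36. That value lies at the edge of the bulk of genes, since 16.2% had a lower ratio. Slc3a2 (NCBI gene 17254), the heavy chain that both light chains need, had 94.7 and 84.5 FPKM. Its log2 ratio of -0.16 lies well within the bulk of genes, 32.5% of which had a lower ratio. The heavy chain was far above its light chains in both libraries. Its FPKM was 5.09 times the sum of 6 known partners in the table (Slc7a5, Slc7a6, Slc7a7, Slc7a8, Slc7a10 and Slc7a11) with GFP siRNA and 6.21 times with ClpP siRNA. The sum of the light chains went from 18.6 to 13.6 FPKM. Slc7a11 made up 13.7% of it in the first library and 3.06% in the second, and Slc7a5 47.0% and 48.5%.

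The constitutive liver carriers were higher or nearly level. Slc38a4 (NCBI gene 69354), a sodium-coupled carrier of small neutral amino acids that is imprinted in the mouse, was the most abundant of the 10 in both libraries. Levels of 95.4 and 140.4 FPKM gave it a log2 ratio of 0.55, and 10.7% of genes had a higher one. Slc7a2 (NCBI gene 11988) encodes CAT2, the cationic carrier for arginine and lysine of the liver. It had 5.51 and 8.75 FPKM, a log2 ratio of 0.58, and 10.01% of genes had a higher one. Its 2 known liver and inducible isoforms share 1 row and cannot be told apart. Slc38a3 (NCBI gene 76257), which moves glutamine and histidine in either direction, had 25.6 and 24.6 FPKM. Its log2 ratio of -0.06 was near the median of all genes.

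Set side by side, the median log2 ratio was -0.36 over the 3 ATF4 targets and 0.55 over the 3 constitutive carriers, a difference of 0.91. The groups did not overlap, but the gap between their nearest members, Slc3a2 and Slc38a3, was 0.11. With 3 genes a group and 1 library per condition this difference has no test. The ratios of the ATF4 targets alone, from -1.33 to -0.16, spread over more than that difference, because Slc7a11 lies far below the other two.

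**Figure D2:**
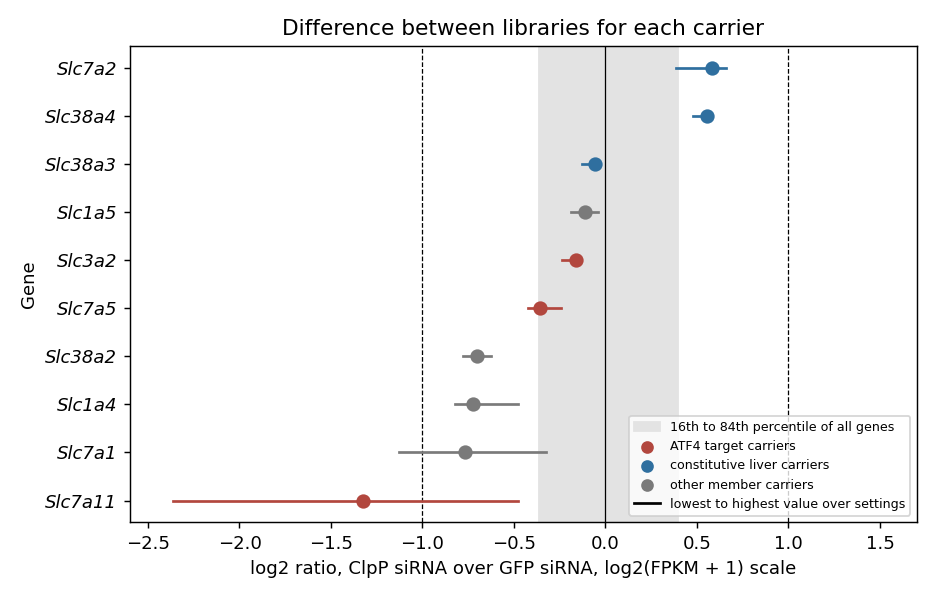
Log2 ratio of each carrier (ClpP siRNA over GFP siRNA, log2(FPKM + 1) scale), as a point coloured by group. Each line runs from the lowest to the highest value over the settings tried, the grey band is the 16th to 84th percentile of all 11087 genes, and dashed lines mark 2-fold. Slc7a2 and Slc38a4 lie above the band and Slc38a2, Slc1a4, Slc7a1 and Slc7a11 below it, and the line of Slc7a11 is the longest, from -2.36 to -0.48.

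Of the other 4 carriers, 3 had ratios close to one another and below the bulk of genes. Slc7a1 (NCBI gene 11987) encodes CAT1, the widely expressed high affinity carrier for arginine and lysine that is scarce in adult liver. Levels of 2.76 and 1.21 FPKM gave it a log2 ratio of -0.77, and 3.61% of genes had a lower one. Slc1a4 (NCBI gene 55963) encodes ASCT1, an exchanger of alanine, serine and cysteine. It had 9.14 and 5.14 FPKM, a log2 ratio of -0.72, and 4.18% of genes had a lower one. Slc38a2 (NCBI gene 67760) encodes SNAT2, the sodium-coupled carrier that cells make in response to a lack of amino acids. Its levels were 39.5 and 23.9 FPKM, a log2 ratio of -0.70, and 4.54% of genes had a lower one. Slc1a5 (NCBI gene 20514), which encodes the glutamine exchanger ASCT2, was the least abundant member with GFP siRNA. It had 1.26 and 1.09 FPKM, and its log2 ratio of -0.11 lay within the bulk of genes. The median of the 4 was -0.71. ATF4 targets may be among these 4, so this median does not describe carriers outside ATF4 control.

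Markers of other liver cells were lower as sums in the ClpP siRNA library, beside the lower carriers. In the endothelial, stellate and cholangiocyte lists not every gene was lower. The summed FPKM of Kupffer cell markers (9 of 10 with a row) was 15.7 in the control and 6.57 with ClpP siRNA. That of sinusoidal endothelial markers (8 of 8) was 25.0 and 13.5, and that of stellate cell and fibroblast markers (8 of 8) 35.2 and 15.97. All 5 Kupffer cell markers that passed the filter were lower, where 50.7% of all genes were. Among them C1qa (1.77 and 0.635 FPKM) passed through its level with GFP siRNA alone. Of the endothelial markers 4 of 5 were lower and Oit3 was higher (3.32 and 4.43 FPKM). Lyve1 (1.42 and 0.811 FPKM), 1 of the lower, also passed through its level with GFP siRNA alone. At least 2-fold lower were 2 of the 5 endothelial markers, where 2.04% of all genes were. These were Pecam1 (5.17 and 1.39 FPKM) and Cdh5 (7.31 and 2.61 FPKM). In the stellate list Acta2 (26.5 and 9.47 FPKM) carried most of the fall of the sum. Col3a1 was also lower (1.97 and 0.537 FPKM) and passed the filter through its level with GFP siRNA alone. Col1a1 and Dcn were level, at 2.69 FPKM each in the control and 2.72 and 2.68 with ClpP siRNA. In the control, markers such as Acta2, Cdh5, Pecam1 and Cd5l (3.98 FPKM) were above the scarce carriers Slc7a11 (2.55 FPKM) and Slc7a1 (2.76 FPKM). Other markers of these cells were low in both libraries. Clec4f of Kupffer cells was at 0.777 and 0.0718 FPKM and Lrat of stellate cells at 0.0790 and 0.0104. In sinusoidal endothelium Stab2 was at 1.08 and 0.331 FPKM and Clec4g went the other way, at 0.190 and 0.794. Cholangiocyte markers (5 of 6) summed to 1629 and 937 FPKM, almost all of it Spp1 at 1605 and 870. The other 3 that passed the filter were higher, Krt19 at 9.58 and 50.2 FPKM (log2 ratio 2.28), Sox9 with 0.14 and Krt7 with 0.13. Kupffer, endothelial and stellate cells can express carriers such as Slc7a1 and Slc7a11, and their part in the lower values was not tested. In bulk RNA, fewer cells of a type and less RNA per cell cannot be told apart.

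Seen by transport task, the make-up of the carriers differed more than their sum. The FPKM of all 10 added up to 285 with GFP siRNA and 296 in the ClpP siRNA library. The 2 higher carriers gained 48.2 FPKM together and the 8 lower ones lost 36.9. Among the 3 SLC38 genes, Slc38a4 held 59.4% of the summed FPKM in the control library and 74.3% in the other. Slc38a2 went from 24.6% to 12.6%, and from above Slc38a3 to just below it. Between the cationic carriers, Slc7a2 had 1.99 times the FPKM of Slc7a1 with GFP siRNA and 7.23 times with ClpP siRNA. Its share of their sum was 66.6% and 87.9%, while the sum itself was 8.27 and 9.96 FPKM. Slc1a4 exceeded Slc1a5 7.25 times in the first library and 4.69 times in the second.

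**Figure D3:**
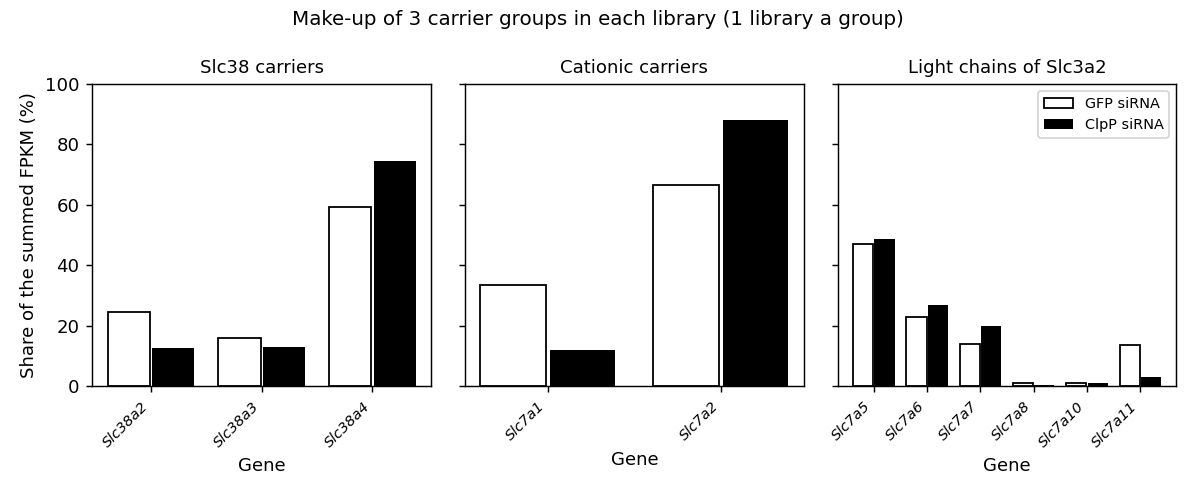
Share of each gene in the summed FPKM of its carrier group, in percent, with open bars for GFP siRNA and filled bars for ClpP siRNA (1 library each, no error). Slc38a4 takes 59.4% and 74.3% of the SLC38 sum, Slc7a2 takes 66.6% and 87.9% of the cationic sum, and Slc7a11 takes 13.7% and 3.06% of the light chains.

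The order of levels was the same at the top in both libraries, Slc38a4 before Slc3a2. With GFP siRNA these were nearly equal, at a ratio of 1.01, and with ClpP siRNA Slc38a4 had 1.66 times the FPKM of Slc3a2. With GFP siRNA the rest followed as Slc38a2, Slc38a3, Slc1a4, Slc7a5, Slc7a2, Slc7a1, Slc7a11 and Slc1a5. With ClpP siRNA they followed as Slc38a3, Slc38a2, Slc7a2, Slc7a5, Slc1a4, Slc7a1, Slc1a5 and Slc7a11. With 1 library each, no spread is known, so close neighbours in these orders cannot be told apart.

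Further amino acid carriers are given for comparison, and with 5.19% of all genes 2-fold higher and 2.04% lower, lists this short would hold few such genes in any case. Of 31 further plasma membrane carriers, 17 had a row and 10 passed the filter, with 4 higher, 6 lower, none past 2-fold and a median log2 ratio of -0.18. The most abundant was the taurine carrier Slc6a6 (96.2 and 85.0 FPKM, log2 ratio -0.18), followed by Slc6a13, a carrier of GABA and taurine (22.4 and 17.6, -0.34), and the glycine carrier Slc6a9 (19.5 and 17.2, -0.18). The aromatic amino acid carrier Slc16a10 had 9.93 and 12.4 FPKM, a log2 ratio of 0.29. The largest ratio in size was that of Slc6a12, which carries betaine and GABA, at -0.86 (5.75 and 2.72 FPKM), and Slc36a1, a proton-coupled carrier of small amino acids, had 0.34. Of 10 lysosomal and intracellular carriers 8 passed, with 6 higher and 2 lower, none past 2-fold and a median of 0.14. The lysosomal cationic amino acid exporter Pqlc2 had the largest ratio among them, 0.57 (11.2 and 17.2 FPKM), the glutamine exporter Slc38a7 had -0.35, the peptide and histidine carrier Slc15a4 0.28 and Slc38a6 0.25.

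ATF4 and its targets outside the carriers had the lowest median of the related lists, -0.54 over 21 of 24 members, with 18 lower and 3 higher. Past 2-fold, 7 were lower and 2 higher, beside 2.04% and 5.19% of all genes. Atf4 itself was at 149 and 88.1 FPKM, a log2 ratio of -0.75. The serine synthesis enzyme Phgdh (-1.61), the transcription factor Atf5 (-1.59) and the proline synthesis enzyme Aldh18a1 (-1.42) were the lowest. Ddit3, which encodes the stress factor CHOP, went the other way at 1.56. Nupr1 was also more than 2-fold higher, at 1.20, while Sesn2 (-0.01) and Atf3 (-0.06) were near level. Atf4, Nupr1, Sesn2, Atf3 and the enzyme Asns (-1.37), which makes asparagine, are named after their values were seen. Of the eIF2 alpha kinases, regulators and phosphatase subunits (8 of 8 passed, median -0.06), Eif2ak2, which encodes the double-stranded RNA kinase PKR, had 1.17, and Eif2ak3, which encodes the endoplasmic reticulum kinase PERK, had -0.67. The phosphatase subunit Ppp1r15a had -0.38 and Gcn1l1, which helps to activate the amino acid sensing kinase, 0.21.

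Genes of glutathione and cysteine supply, to which the cystine brought in by xCT contributes, were measured next. Of 14 genes of glutathione synthesis and cysteine supply, 12 passed, with 8 lower and 4 higher, where 50.7% of all genes were lower, and the median was -0.23. At least 2-fold lower were 3, where 2.04% of all genes were. The lowest was Chac1, a glutathione-degrading enzyme that is also in the ATF4 list, at -1.25 (13.5 and 5.12 FPKM). Csad, which makes taurine from cysteine, had -1.11 and Cth, which makes cysteine by transsulfuration, -1.07 (19.7 and 8.87 FPKM). Glutathione synthetase (Gss) had -0.71. The subunits of the rate-limiting ligase, named after their values were seen, went apart, with Gclc at 0.33 and Gclm at -0.30. Slc7a11 is also a target of the oxidative stress factor NRF2. Among 15 genes of NRF2 and its targets the median was -0.12, with 9 lower and 6 higher. Past 2-fold there was 1 of 15 in each direction, beside 2.04% lower and 5.19% higher of all genes. They were Abcc4, an exporter of organic anions, at -1.74 and G6pdx, the first enzyme of the pentose phosphate pathway, at 1.74. Taldo1 of the same pathway had 0.67 and the quinone reductase Nqo1 -0.53.

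**Figure D4:**
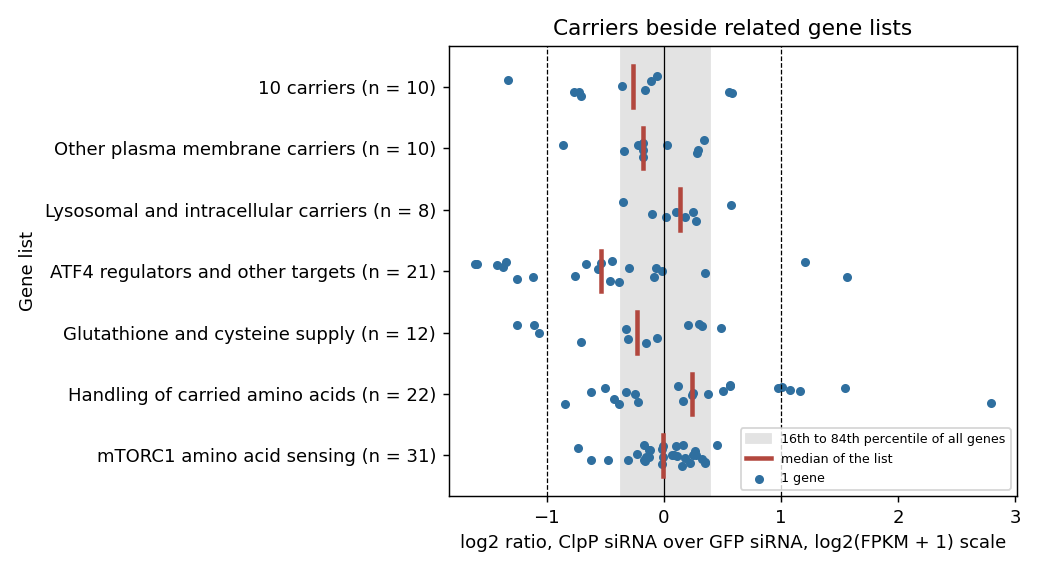
Log2 ratios (ClpP siRNA over GFP siRNA, log2(FPKM + 1) scale) of the 10 carriers and of 6 related gene lists, 1 point per gene of mean FPKM at least 1, with the median as a red bar. The grey band is the 16th to 84th percentile of all genes and dashed lines mark 2-fold. The medians run from -0.54 for the ATF4 list to 0.24 for genes that handle the carried amino acids, and the carriers lie at -0.26.

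Inside the cell, genes that handle the carried amino acids had a median of 0.24 over 22 of 26 members, 14 higher and 8 lower. At least 2-fold higher were 5 and lower 0, beside 5.19% and 2.04% of all genes. Cps1, which makes carbamoyl phosphate for the urea cycle, had 2.79, the histidine ammonia lyase gene Hal 1.54 (0.591 and 3.63 FPKM, past the filter only through the ClpP siRNA library), the cytosolic aspartate aminotransferase gene Got1 1.16 and the tryptophan dioxygenase gene Tdo2 1.08. Genes through which amino acids act on the growth kinase mTORC1 were close to genes in general. Of 33 members 31 passed, with 15 higher, 16 lower and none past 2-fold, and their median of -0.01 was that of all genes. Rragd, a Rag GTPase, had -0.73, Seh1l, a subunit of nuclear pores and of the GATOR2 complex, -0.62, Rraga -0.48 and the inhibitor Tsc1 0.46.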

How the data were processed

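Poly-A RNA of 2 libraries was read from 1 deposited table with a row per NCBI gene ID. Per the file headers, 2 columns hold FPKM computed by the authors. The authors also deposited log2 values, which equal log2(FPKM + 1) after quantile normalization to within 0.001, and a signed fold change, treated as a score, which equals 2 to the power of their difference to within 1e-06 (a negative inverse where lower). STAR 2.4.0f1, TopHat2 2.0.13, Bowtie2 2.2.3 and Cufflinks 2.2.1 are named, per the submitters' processing notes, beside Trimmomatic 0.32 and FastQC 0.10.0, with no role or order. The build is not given in the sources used here. One column header names GFP, and the other was read as an abbreviation of ClpP siRNA from its name alone.

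Of 14346 rows, 7 without a gene name stayed out (0.0475% of FPKM in the control library and 0.0335% with ClpP siRNA). All rows were above 0 in both libraries. Genes of mean FPKM at least 1 were kept (11087), 1 was added before the log2, and a gene counted as higher or lower at 2-fold. With 1 library per group there was no test. The arithmetic was checked on simulated 4-fold differences in abundant genes, without noise, which says nothing of the scarce carriers. Python 3.11.15, numpy 2.4.6, pandas 2.3.3 and matplotlib 3.10.9 were used. List genes were matched by symbol or, for 6, by older symbol through NCBI gene ID. All 10 carriers were named, and from each list up to 4 genes of largest ratio in size, with the 4 most abundant of the other plasma membrane carriers. Members and lists were chosen with earlier results of these data known. Alternatives were other pseudocounts, scalings, filters and a limit of 1.5-fold.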

Additional observations from a re-analysis of the deposited data

How the results depend on the processing

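The direction of all 10 carriers was the same with equal totals, upper quartiles or medians and with quantile normalization. A pseudocount of 0.1 or 5 cannot turn the direction of a carrier, and either other filter leaves its ratio unchanged, so these settings do not check direction. The medians of the 3 carrier groups and the difference between constitutive and ATF4 target carriers (0.63 to 0.96) kept their direction in all of these settings. Slc7a11, Slc7a1 and Slc1a5 have no value at a mean FPKM of 5 or more. Slc7a11 fell short of 2-fold with a pseudocount of 5 (-0.48), and Slc7a1 passed it with 0.1 (-1.13). The number of carriers at least 2-fold lower, 1, became 2 with a pseudocount of 0.1, 0 with 5, 0 at a mean FPKM of 5 or more and 4 at a limit of 1.5-fold. Those 4 became 1 with a pseudocount of 5 and 2 at a mean FPKM of 5 or more, and the 0 carriers at least 1.5-fold higher became 1 (Slc7a2) with a pseudocount of 0.1 and 1 with equal totals (settings at 1.5-fold were added after seeing the data). Of all genes, 226 lower and 575 higher became 357 lower with a pseudocount of 0.1, 89 and 327 with 5, 142 lower at a mean FPKM of 5 or more, and 753 and 1105 at 1.5-fold. No paired analysis was possible because each group held 1 library. The unknown depth limits most the carriers near 1 FPKM, Slc7a11, Slc7a1 and Slc1a5.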

Other observations

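At a mean FPKM of at least 1, 6 genes had 2 or more copies of the amino acid response element TGATGNAAN in 1 promoter window, and they are named after their values were seen. They include 2 amino acid carriers, Slc7a11 and Slc7a7, which exports cationic amino acids together with Slc3a2, and Aars, the alanyl tRNA synthetase gene. Slc7a11 had a log2 ratio of -1.33, the mitochondrial gene Chchd10 -0.84, Aars -0.17, Slc7a7 0.03, Zfp672 0.33 and Sgsm3 0.63. A repeated element was thus found in genes on both sides of 0. Of 230 genes with at least 1 copy, the median log2 ratio was 0.01, and 11.3% were at least 1.5-fold lower and 13.04% at least 1.5-fold higher. Of 8670 genes with a window and no copy, the median was -0.01 and these shares were 6.36% and 9.60%.

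Arg1, the liver arginase that uses arginine brought in by cationic carriers and is usually abundant in hepatocytes, had 0.930 FPKM in the control library and 0.608 with ClpP siRNA, below the filter. Arg2, the mitochondrial arginase, had 0.650 and 1.02 FPKM. Both values lie below those of Slc7a2, at 5.51 and 8.75 FPKM. They are named after their values were seen.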
